A study of Mus musculus with 16 samples.

Results

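Induced myotubes of the msx2 line were compared with the undifferentiated myoblasts of the same line, which asks what still separates myotubes that express the Msx2 transgene from the state before differentiation. The comparison rests on 5 of the 16 libraries of the series, chosen by their labels: 3 of induced msx2 myotubes and 2 of uninduced msx2 myoblasts. Of 19866 entries in the count table, the 19799 with a gene symbol were used, and 16245 had enough reads to be tested. All cells were pmi28, mouse myoblasts of a line able to fuse into myotubes, carrying transgenes that doxycycline switches on. Induced msx2 myotubes carried msx2 and GFP transgenes, had been differentiated in 10% horse serum for 3 days, trapped on a nylon mesh and replated in medium with AraC, a cytostatic nucleoside, and then received doxycycline at 2 µg/ml in growth medium with 20% fetal bovine serum for 24 h. Uninduced msx2 myotubes (3 libraries) were isolated in the same way without doxycycline, in a medium that the labels do not state. Msx2 myoblasts carried the same transgenes, grew in the 20% serum medium and received neither mesh isolation, nor AraC, nor doxycycline. Induced GFP myotubes (3 libraries) and GFP myoblasts (2 libraries) came from a line with the GFP transgene alone and were handled as their msx2 counterparts. Fusion, isolation, AraC, doxycycline, GFP and Msx2 therefore all differ between induced msx2 myotubes and msx2 myoblasts and cannot be told apart in that comparison. The induced GFP myotubes had the same handling without the msx2 transgene. The labels do not say which promoter drives the transgenes, whether a line is 1 clone, or whether the libraries of a group are separate cultures. A p-value therefore covers no more than the spread between these libraries, which may be technical.

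Skeletal myoblasts leave the cell cycle, switch on Myog and then the genes of the contractile apparatus, and fuse. The factors Myf5 and Pax7 mark the proliferating state, and Rb1 together with CDK inhibitors such as Cdkn1a keeps the nuclei of a myotube out of the cycle. Msx2, like its relative Msx1, is a homeodomain repressor of undifferentiated mesenchyme, and forced expression of Msx genes is known to oppose myogenic differentiation.

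Libraries of the comparison held 21423398 to 25727656 reads in induced msx2 myotubes and 26879290 and 28170368 reads in msx2 myoblasts, within a range of 19772048 to 33070931 over the series. Levels below are CPM, that is, read counts relative to library size after TMM adjustment, and are not corrected for gene length, so they are compared between groups and not between genes. Fold changes are log2 values with their standard error, from edgeR's quasi-likelihood test, and a gene passed where the Benjamini-Hochberg adjusted p over all 16245 genes was under 0.05. The second library of induced msx2 myotubes stood apart from the others of its group: 167 and 110 genes differed over 2-fold between it and libraries 1 and 3, against 28 between libraries 1 and 3. Library 2 of the uninduced msx2 myotubes did likewise, with 189 and 77 genes against 22. Between the 2 msx2 myoblast libraries 45 genes differed over 2-fold, 29 higher in library 1 and 16 higher in library 2. These genes held 1.64% of CPM in library 1 and 0.287% in library 2. In the GFP line 25, 51 and 58 genes differed over 2-fold between pairs of induced myotube libraries, and 1 gene between the 2 myoblast libraries. All groups shared 1 estimate of the spread in the test. Myotube markers were high in induced msx2 myotubes and low in their myoblasts: Acta1, skeletal muscle alpha-actin, had 3523, 4134 and 4977 CPM in induced msx2 myotubes, against 376 and 382 CPM in msx2 myoblasts. Ckm, muscle creatine kinase, had 364, 328 and 520.3 CPM in induced msx2 myotubes, against 26.2 and 23.9 CPM in msx2 myoblasts. The proliferation marker Mki67 had 4.78, 15.9 and 4.31 CPM in induced msx2 myotubes, the highest of these in library 2, against 246 and 237 CPM in msx2 myoblasts.

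The induced gene was measured in every library first. Msx2 had 1344, 1462 and 1514 CPM in induced msx2 myotubes, 12.1, 15.9 and 13.2 CPM in uninduced msx2 myotubes and 16.8 and 16.4 CPM in msx2 myoblasts. Induced GFP myotubes had 0.803, 1.05 and 1.26 CPM and GFP myoblasts 1.59 and 1.28 CPM. All 3 induced libraries were far above every other library, and the msx2 line without doxycycline was above the GFP line. The fold change over msx2 myoblasts was 6.44 ± 0.13 (log2). Reads of the transgene and of the endogenous gene are not separated in these counts. Msx1, the related gene, was scarce and lower in induced msx2 myotubes, with 0.465, 0.906 and 0.213 CPM against 2.9 and 2.1 CPM in msx2 myoblasts.

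Induced msx2 myotubes remained far from myoblasts. Of 16245 genes, 13136 (80.9%) passed, 6891 (42.4%) higher and 6245 (38.4%) lower in induced msx2 myotubes than in msx2 myoblasts. With a fold of at least 2, 4457 genes (27.4%) were higher and 2932 (18%) lower. Upper-quartile scaling, which moved the median of all genes to 0.32 against 0.12, gave 8031 higher and 5289 lower, and 5120 and 2308 with a fold of at least 2. With TMM and a fold of at least 16, 565 (3.48%) were higher and 102 (0.628%) lower. Libraries of the groups did not overlap for 14033 genes (86.4%). When the test itself asked for more than a 2-fold difference, 3216 genes were higher and 2318 lower. Uninduced msx2 myotubes, set against the same myoblast libraries, had 12964 genes past the threshold (79.8%, with 40.8% higher and 39% lower), 4312 at least 2-fold higher (26.5%) and 2898 at least 2-fold lower (17.8%). The same comparison in the GFP line, which shares no library with it, gave 12585 (77.5%), 39.7% of genes higher and 37.8% lower. With most genes called, a call alone says little of a gene list. A list median, a summed level or the share of all genes is therefore given with the list counts.

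**Figure D1:**
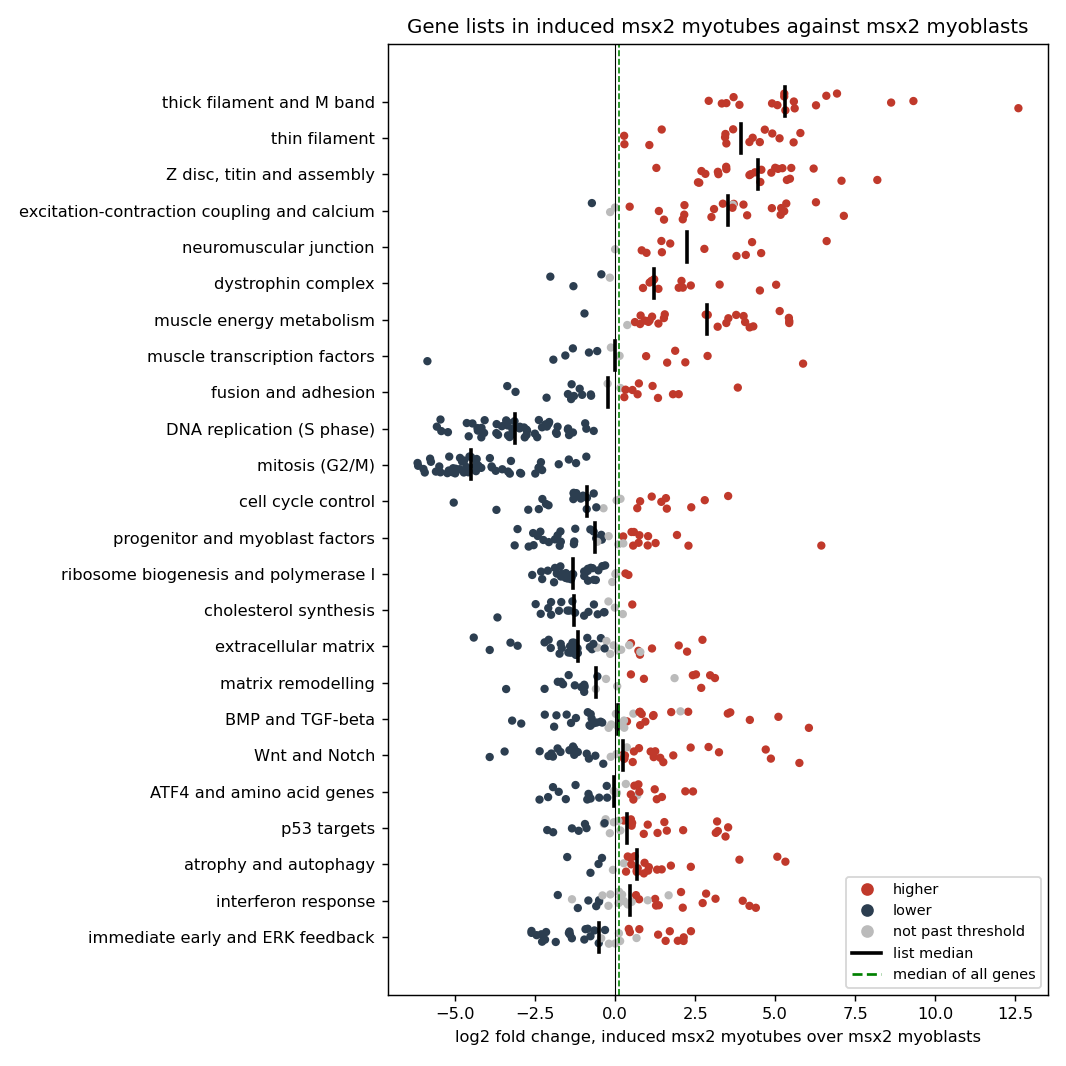
Log2 fold change (x axis) of every tested member of 24 gene lists in induced msx2 myotubes over msx2 myoblasts; each point is a gene, red where higher and dark blue where lower past the threshold, grey otherwise, black bars are list medians and the green dashed line is the median of all genes (0.12). The mitosis and DNA replication lists lie wholly below 0, the 3 sarcomere lists wholly above 0, and muscle transcription factors spread to both sides.

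Genes of cell division formed the clearest fall. All 51 tested members of the mitosis (G2/M) list were lower in induced msx2 myotubes than in msx2 myoblasts, with a median of -4.51 on the log2 scale, and all 51 of the DNA replication (S phase) list were lower, with a median of -3.15, against a median of 0.12 over all genes. In GFP myotubes, 50 of 51 members of each list fell, with medians of -4.48 and -3.00. Summed over the mitosis list, induced msx2 myotubes held 479.7 to 591.4 CPM, uninduced msx2 myotubes 519.9 to 555.4 CPM and msx2 myoblasts 6326 to 6479 CPM. Fewer cycling cells in a library and less of these RNAs per cell cannot be told apart in bulk RNA.

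Among genes that averaged 2 CPM or more in induced msx2 myotubes or msx2 myoblasts, most of the 10 largest falls were of mitotic genes, which were picked here by their size, so that their values are a description. Aurkb, the kinase of the chromosomal passenger complex, had 0.93, 1.81 and 0.427 CPM in induced msx2 myotubes, against 77.9 and 73.6 CPM in msx2 myoblasts (log2 -6.18 ± 0.32). Ccna2, cyclin A, had 1.61, 4.06 and 1.03 CPM in induced msx2 myotubes, against 157 and 159.9 CPM in msx2 myoblasts (log2 -6.16 ± 0.34). Cdk1, the mitotic kinase, had 3.47, 8.86 and 2.06 CPM in induced msx2 myotubes, against 258 and 258 CPM in msx2 myoblasts (log2 -5.76 ± 0.46). Only genes without overlap between libraries of the 2 groups were taken, so that their separation is no result. Library 2 was the highest of the induced libraries in all 3 genes. Fam64a (-6.66), Cdc20 (-5.99), an activator of the anaphase-promoting complex, the kinesin Kif2c (-5.95), Cenpa (-5.79), the centromeric histone, Fam83d (-5.76) and Cdca3 (-5.75) were the others of these 10, with Myf5. In the replication list, Mcm6 and Mcm7, subunits of the replicative helicase, fell by 4.64 and 3.54. Against uninduced msx2 myotubes, few members moved in induced ones: 2 mitosis genes were higher and 2 lower, and 2 replication genes were higher and 4 lower, where 32.5% of all genes passed in that comparison (16.2% higher and 16.3% lower). Mcm6 was among them, with 7.78, 9.57 and 7.37 CPM in induced and 5.34, 6.72 and 5.79 CPM in uninduced msx2 myotubes (adjusted p = 0.00995).

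Promoters are shown for the 2 mitosis genes with the smallest adjusted p that the RefSeq table holds, as sequence of genes that moved together. They are the 250 bases before the annotated start of Ncapd2, a condensin subunit (chr6:125191587-125191836, minus strand), and of Racgap1, a GTPase-activating protein of cytokinesis (chr15:99651657-99651906, minus strand), in RefSeq's GRCm38.p6, 5′ to 3′ on the gene's strand. Capitals mark every match, on either strand, to TTTGAA or TTCGAA (the CHR element of late cell cycle genes), CCAAT, or TTTCCCGC or TTTGGCGC (E2F).
Ncapd2: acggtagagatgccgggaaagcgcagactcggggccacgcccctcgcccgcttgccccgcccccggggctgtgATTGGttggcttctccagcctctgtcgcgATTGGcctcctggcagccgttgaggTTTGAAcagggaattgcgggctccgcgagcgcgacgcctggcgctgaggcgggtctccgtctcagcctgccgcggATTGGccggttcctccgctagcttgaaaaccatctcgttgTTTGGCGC
Racgap1: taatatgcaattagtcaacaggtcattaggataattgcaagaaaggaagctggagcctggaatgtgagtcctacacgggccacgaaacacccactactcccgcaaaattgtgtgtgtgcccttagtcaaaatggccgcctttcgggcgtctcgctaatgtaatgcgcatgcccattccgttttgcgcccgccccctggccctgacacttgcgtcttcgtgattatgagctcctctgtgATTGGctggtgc
Ncapd2 held 1 CHR match, 3 CCAAT matches and 1 E2F match, and Racgap1 held 1 CCAAT match, ATTGG on the printed strand. Over windows that also include 50 bases after the start, CHR letters were in 36 of 46 promoters of mitosis genes (78.3%), against 14.5% of 15072 promoters of genes tested, and CCAAT in 76.1%, against 37.2%. The E2F letters were in 13 of 46 promoters of the replication list (28.3%), against 2.46%. Ncapd2 had 10.6, 10.5 and 9.11 CPM in induced msx2 myotubes, against 192 and 174 CPM in msx2 myoblasts (log2 -4.19 ± 0.10). Racgap1 had 11.7, 15.6 and 11.9 CPM in induced msx2 myotubes, against 259 and 249 CPM in msx2 myoblasts (log2 -4.28 ± 0.13). These matches describe letters in the windows and no binding was measured.

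Regulators of the cycle did not move as 1 group: of 29 tested members of the cell cycle control list, 9 were higher and 17 lower (median -0.88). The CDK inhibitor Cdkn1a had 1459, 1450.5 and 1647 CPM in induced msx2 myotubes, against 131 and 132 CPM in msx2 myoblasts (log2 3.53 ± 0.08), and uninduced msx2 myotubes had 1639, 1617 and 1554 CPM. Rb1, the retinoblastoma protein, had 54.8, 42.3 and 51.7 CPM in induced msx2 myotubes, against 9.67 and 9.42 CPM in msx2 myoblasts (log2 2.38 ± 0.21). Ccnd3, the D-cyclin of differentiating muscle, was also higher (1.44). In all 3 genes of cycle exit, every induced library was above both myoblast libraries. Among the other CDK inhibitors Cdkn1c was higher too, while Cdkn2c fell by 3.71, Cdkn1b by 1.30, Cdkn2d by 0.89, Cdkn2a by 0.88 and Cdkn2b by 0.59. Cdk4, the partner of D-cyclins, fell by 2.72, E2f7 by 5.05, E2f8 by 2.28 and the pocket protein gene Rbl1 by 2.08. Among the other E2F genes E2f3 (-1.07), E2f4 (-0.67) and E2f5 (-1.22) were lower and E2f6 (0.78) higher, and neither Rbl2, with 26.8, 21.5 and 21.4 CPM in induced msx2 myotubes against 23.7 and 21.3 CPM in msx2 myoblasts, nor Ccnd2, with 64.6, 152 and 88.5 CPM in induced msx2 myotubes against 133 and 129 CPM in msx2 myoblasts, passed.

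Some members stood between or beyond the states in induced msx2 myotubes. Ccnd1, the D-cyclin that serum induces, had 411, 329 and 278 CPM in induced msx2 myotubes, 66.4, 107 and 65.2 CPM in uninduced msx2 myotubes and 223 and 198 CPM in msx2 myoblasts. Every induced library was above both myoblast libraries and above the uninduced ones, and the excess over myoblasts was 0.69 ± 0.21 (adjusted p = 0.00782, and 0.0629 without msx2 myoblast library 2). Induced GFP myotubes, in the same serum, had 70.6, 69.7 and 61.8 CPM, against 247 and 229.9 CPM in GFP myoblasts, and the difference between the lines passed (log2 2.51 ± 0.29). E2f1 had 21.5, 17 and 18.6 CPM in induced msx2 myotubes, 6.24, 6.9 and 4.58 CPM in uninduced msx2 myotubes and 48.3 and 45.2 CPM in msx2 myoblasts, so that it was lower than in myoblasts by less (-1.30 ± 0.15) than in the GFP line (difference between lines 1.63 ± 0.22). E2f2 had 71.8, 66.6 and 79.3 CPM in induced msx2 myotubes, 21.5, 27.9 and 25.8 CPM in uninduced msx2 myotubes and 9.89 and 10.9 CPM in msx2 myoblasts, above both states (log2 over myoblasts 2.80 ± 0.13). Cdkn1c, the inhibitor p57, had 56.7, 21.1 and 35.3 CPM in induced msx2 myotubes, 4.64, 4.62 and 4.61 CPM in uninduced msx2 myotubes and 13.5 and 11.6 CPM in msx2 myoblasts (log2 over myoblasts 1.59 ± 0.29), with a wide spread among the induced libraries.

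**Figure D2:**
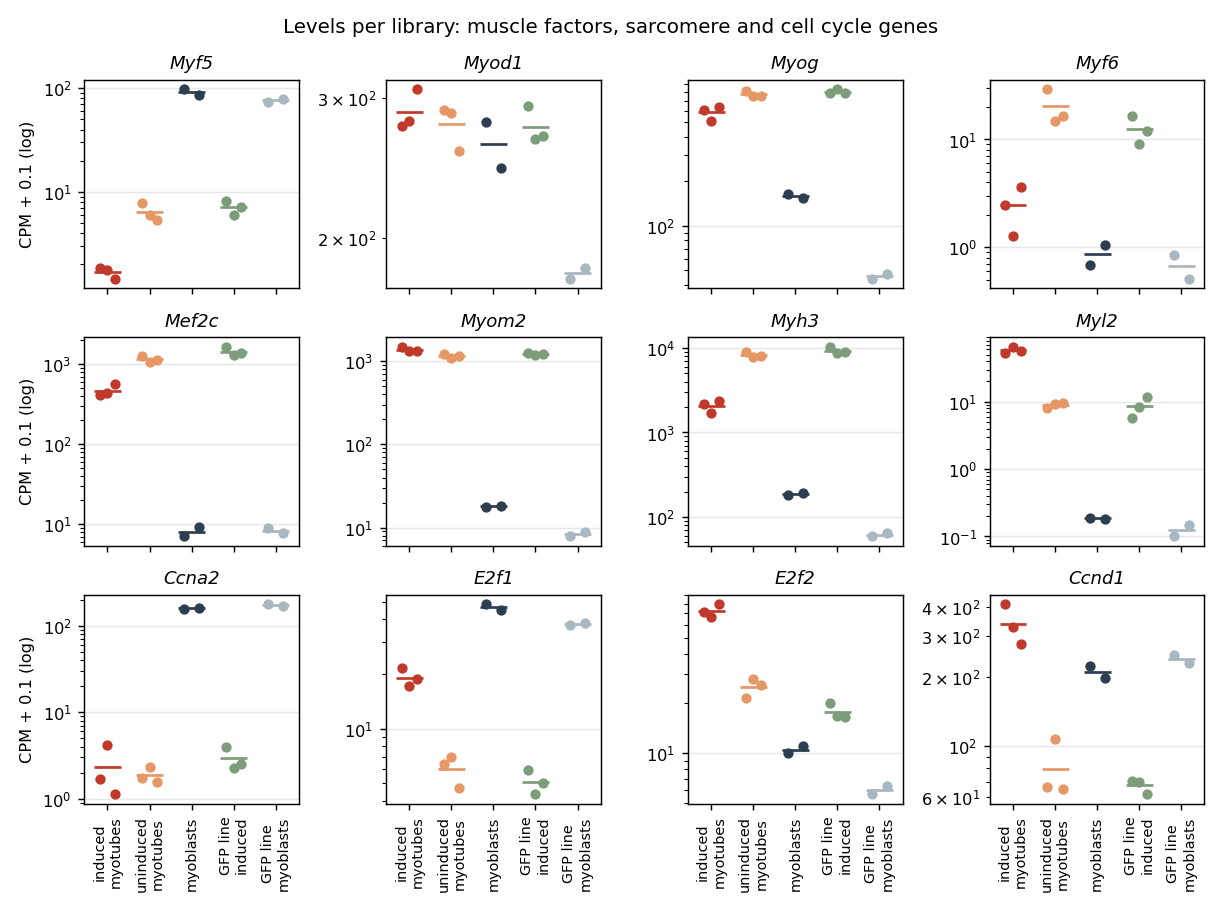
CPM plus 0.1 on a log axis (y) of 12 genes in each library of 5 groups (x): induced and uninduced msx2 myotubes, msx2 myoblasts, induced GFP myotubes and GFP myoblasts; points are libraries and bars group means. Ccna2 is low in every myotube library, Myom2 is high in every myotube library, Myf5 is lowest in induced msx2 myotubes, and Ccnd1 is above the myoblast libraries only in induced msx2 myotubes among the groups shown.

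Myogenic transcription factors split. Of 14 tested members 6 were higher and 6 lower (median 0.00, and 0.21 with upper-quartile scaling, which moved the median of all genes to 0.32). Myf5, the factor of proliferating myoblasts, had 1.73, 1.65 and 1.35 CPM in induced msx2 myotubes, 7.79, 5.87 and 5.26 CPM in uninduced msx2 myotubes and 97.7 and 86.7 CPM in msx2 myoblasts. Induced msx2 myotubes were thus the farthest from myoblasts (log2 -5.87 ± 0.17), and below induced GFP myotubes, which had 8.03, 5.84 and 7.1 CPM against 73.7 and 79.3 CPM in GFP myoblasts (difference between lines -2.42 ± 0.24). Myod1 had 277, 280.2 and 308 CPM in induced msx2 myotubes, against 279.7 and 245 CPM in msx2 myoblasts, and did not pass (0.14 ± 0.08, adjusted p = 0.116), though with upper-quartile scaling it passed as higher (0.34, adjusted p = 0.000615), as it did without msx2 myoblast library 1 (0.23, adjusted p = 0.0421). Myog had 608, 510.4 and 631 CPM in induced msx2 myotubes, 812, 752 and 757 CPM in uninduced msx2 myotubes and 165 and 153 CPM in msx2 myoblasts. It remained above myoblasts (log2 1.87 ± 0.09), by less than in the GFP line, where induced myotubes had 793, 836 and 790.5 CPM and myoblasts 43.7 and 47 CPM (difference between lines -2.28 ± 0.12). The msx2 myoblasts already held more Myog than GFP myoblasts.

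Myf6, the late factor also called MRF4, had 2.37, 1.18 and 3.52 CPM in induced msx2 myotubes, 29.1, 14.9 and 16.5 CPM in uninduced msx2 myotubes and 0.579 and 0.946 CPM in msx2 myoblasts. Its excess over myoblasts barely passed (1.62 ± 0.68, adjusted p = 0.0427). Without single libraries it missed the threshold, with an adjusted p of 0.0678 without induced msx2 myotube library 1, 0.148 without library 3, 0.184 and 0.0806 without msx2 myoblast library 1 or 2, and 0.053 without induced GFP myotube library 3. Mef2c, which acts with the myogenic factors on muscle promoters, had 408, 433 and 564 CPM in induced msx2 myotubes, 1280.3, 1076 and 1132 CPM in uninduced msx2 myotubes and 6.91 and 9.05 CPM in msx2 myoblasts, so the induced libraries lay between the states and did not overlap either (log2 over myoblasts 5.87 ± 0.22). Its relative Mef2a had 319.8, 288 and 299 CPM in induced msx2 myotubes, 257, 192 and 234 CPM in uninduced msx2 myotubes and 40.7 and 41 CPM in msx2 myoblasts (log2 over myoblasts 2.89 ± 0.11), and was the highest in induced libraries. Mef2d (0.97) and Tead4 (2.19) were higher as well. Srf fell by 1.56, Eya1 by 1.32, Eya4 by 0.82 and Six4 by 0.56. Hopx had 2.54, 2.84 and 2.17 CPM in induced msx2 myotubes, against 2.54 and 2.96 CPM in msx2 myoblasts, and did not pass.

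The contractile apparatus stayed on. All 58 tested members of the sarcomere lists were higher in induced msx2 myotubes than in msx2 myoblasts, with medians of 5.30 for 18 genes of the thick filament and M band, 3.94 for 16 of the thin filament and 4.45 for 24 of the Z disc, titin and assembly (log2). Summed over the 58 genes, induced msx2 myotubes held 48818 to 56518 CPM, uninduced msx2 myotubes 71247 to 84263 CPM and msx2 myoblasts 6642 to 6823 CPM. The sum in induced libraries was thus well above every myoblast library and below every uninduced one. Between induced and uninduced msx2 myotubes 11 of the 58 passed higher and 27 lower, where 16.2% and 16.3% of all genes did. In the GFP line 56 were higher in induced myotubes than in myoblasts and 1 was lower.

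The members differed in where they stood below or above uninduced myotubes. Myh3, embryonic myosin heavy chain, had 2171, 1720.0 and 2338 CPM in induced msx2 myotubes, 8912, 7743 and 8151 CPM in uninduced msx2 myotubes and 181 and 193 CPM in msx2 myoblasts (log2 over myoblasts 3.48 ± 0.14). Myh1, an adult fast myosin heavy chain, had 796, 776 and 1189 CPM in induced msx2 myotubes, 4876, 2953 and 3089.7 CPM in uninduced msx2 myotubes and 20.7 and 26.4 CPM in msx2 myoblasts (log2 over myoblasts 5.29 ± 0.40). Myl1, a fast light chain, had 1124, 1149 and 1352 CPM in induced msx2 myotubes, 3517, 3193 and 2876 CPM in uninduced msx2 myotubes and 96.8 and 89.1 CPM in msx2 myoblasts (log2 over myoblasts 3.70 ± 0.14). Each lay between the states, with no library of 1 group overlapping another. Myom2, an M-band protein, had 1496, 1317 and 1348 CPM in induced msx2 myotubes, 1228, 1102 and 1156 CPM in uninduced msx2 myotubes and 17.5 and 18.3 CPM in msx2 myoblasts (log2 over myoblasts 6.28 ± 0.10), and was highest in the induced libraries. The same held for Unc45b, a myosin chaperone, which had 334, 272 and 353 CPM in induced msx2 myotubes, 177, 142 and 169 CPM in uninduced msx2 myotubes and 7.44 and 7.07 CPM in msx2 myoblasts (log2 over myoblasts 5.46 ± 0.15).

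Single genes of the thick filament, of cardiac, slow and fast muscle, were among the largest rises. Of 18 genes of the thick filament and M band, 5 were higher and 10 lower in induced than in uninduced msx2 myotubes. Of all genes 16.2% and 16.3% were. Mybpc3, cardiac myosin-binding protein C, had 31.9, 26.2 and 36.6 CPM in induced msx2 myotubes, 0.349, 0.427 and 0.685 CPM in uninduced msx2 myotubes and no read in msx2 myoblasts, which made it at least 494-fold higher than in msx2 myoblasts (floor of 3 counts over the myoblast group). Myl2, the ventricular and slow regulatory light chain, had 52.7, 65 and 56.1 CPM in induced msx2 myotubes, 7.89, 9.24 and 9.43 CPM in uninduced msx2 myotubes and 0.0891 and 0.0822 CPM in msx2 myoblasts (log2 over myoblasts 9.32 ± 0.50). Mybpc2, the fast-muscle member of that family, had 229, 157 and 201 CPM in induced msx2 myotubes, 27.4, 16.9 and 26.7 CPM in uninduced msx2 myotubes and 0.267 and 0.699 CPM in msx2 myoblasts (log2 over myoblasts 8.62 ± 0.59). In all 3 genes the induced libraries were above every other library of the line. That is a description, since genes were named in part for the lack of such overlap. The smallest rises in the lists were of the tropomyosin genes Tpm1 (0.29) and Tpm3 (0.28), which non-muscle cells also use.

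Promoters of the 2 sarcomere genes with the smallest adjusted p in the RefSeq table are shown beside those of the mitosis genes, for the contrast in letters. They are the 250 bases before the start of Tnnc1, slow and cardiac troponin C (chr14:31208062-31208311, plus strand), and before the first of the 2 starts listed for Tnni1, slow troponin I (chr1:135799171-135799420, plus strand), in RefSeq's GRCm38.p6. Capitals mark CANNTG, the E box that myogenic factors bind.
Tnnc1: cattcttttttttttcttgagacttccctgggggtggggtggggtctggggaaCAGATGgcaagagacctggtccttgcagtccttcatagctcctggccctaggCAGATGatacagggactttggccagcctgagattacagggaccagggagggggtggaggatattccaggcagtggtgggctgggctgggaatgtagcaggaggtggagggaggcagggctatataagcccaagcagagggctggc
Tnni1: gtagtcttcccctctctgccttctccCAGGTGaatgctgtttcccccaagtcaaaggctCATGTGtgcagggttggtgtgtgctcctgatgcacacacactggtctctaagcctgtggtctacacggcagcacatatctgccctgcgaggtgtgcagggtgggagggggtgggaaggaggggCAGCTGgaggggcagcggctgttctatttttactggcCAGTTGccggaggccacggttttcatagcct
Tnnc1 held 2 E boxes and Tnni1 4, and neither held CHR, CCAAT or E2F letters in the printed bases. Over windows that include 50 bases after the start, CANNTG was in 44 of 53 promoters of the sarcomere lists (83%). It was in 66.3% of promoters of genes tested and in 72.3% of all promoters of the RefSeq table. The narrower CAGCTG, itself a form of CANNTG, was in 21 of 53 (39.6%), against 16.5% of promoters of genes tested. The letters searched for MEF2 factors, such as Mef2c, were in 0 of 53, against 0.398% of promoters of genes tested. At so low a rate, 0 of 53 cannot show a lack of them. TAATTG, the core that Msx proteins bind, was in 2 of 53 promoters of sarcomere genes (3.77%), against 5.18% of promoters of genes tested. Tnnc1 had 1753, 1593 and 1837 CPM in induced msx2 myotubes, against 96.7 and 91.9 CPM in msx2 myoblasts (log2 4.20 ± 0.10). Tnni1 had 1730.1, 1569 and 1862 CPM in induced msx2 myotubes, against 141 and 126 CPM in msx2 myoblasts (log2 3.69 ± 0.09).

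Calcium handling and the synapse followed the sarcomere. In excitation-contraction coupling, 20 of 24 tested genes were higher and 1 lower (median 3.51). Ryr1, the calcium release channel, had 919, 696 and 1018 CPM in induced msx2 myotubes, against 20.9 and 22.2 CPM in msx2 myoblasts (log2 5.35 ± 0.21). Casq2, a calcium store protein, was higher by 4.90 ± 0.09 and Cacnb1, a calcium channel subunit, by 4.01 ± 0.10. Asph, the gene of aspartate hydroxylase and junctin, was the member that fell, with 82, 79.2 and 82 CPM in induced msx2 myotubes, 207, 155 and 163 CPM in uninduced msx2 myotubes and 128 and 140.4 CPM in msx2 myoblasts (log2 over myoblasts -0.73 ± 0.12). It was thus lower than in either state. Of 12 neuromuscular junction genes 11 were higher (median 2.25), among them the acetylcholine receptor subunits Chrng (4.56 ± 0.13) and Chrnd (4.08 ± 0.15). Musk, the receptor kinase of the synapse, had 64.9, 64.7 and 81.3 CPM in induced msx2 myotubes, 232, 173 and 191 CPM in uninduced msx2 myotubes and 39 and 40.2 CPM in msx2 myoblasts, nearer to myoblasts than to uninduced myotubes (log2 over myoblasts 0.83 ± 0.13). Agrn, agrin, had 90.6, 118 and 115 CPM in induced msx2 myotubes, against 112 and 104 CPM in msx2 myoblasts, and did not pass. In the dystrophin complex 13 of 17 were higher and 3 lower (median 1.22), with Cav3 at 4.52 ± 0.12, Dag1, dystroglycan, at 2.07 ± 0.07, and Sgce at -2.03 ± 0.14.

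Energy metabolism of muscle was higher in 24 of 26 tested genes and lower in 1 (median 2.86, against 2.06 in uninduced msx2 myotubes over the same myoblasts). Between induced and uninduced msx2 myotubes 13 were higher and 4 lower, where 16.2% and 16.3% of all genes were. Slc2a4, the insulin-responsive glucose transporter, had 35.3, 30.5 and 33.4 CPM in induced msx2 myotubes, 5.69, 3.63 and 4.39 CPM in uninduced msx2 myotubes and 2.81 and 2.88 CPM in msx2 myoblasts (log2 over myoblasts 3.54 ± 0.17). Cpt1b, which carries fatty acids into mitochondria, had 34.7, 29.2 and 32.4 CPM in induced msx2 myotubes, 5.89, 5.51 and 5.67 CPM in uninduced msx2 myotubes and 1.74 and 1.48 CPM in msx2 myoblasts (log2 over myoblasts 4.32 ± 0.19). Fabp3, a fatty acid binding protein, had 88.9, 83.4 and 92.8 CPM in induced msx2 myotubes, 28.1, 32.6 and 32.5 CPM in uninduced msx2 myotubes and 1.83 and 2.22 CPM in msx2 myoblasts (log2 over myoblasts 5.44 ± 0.12). In these genes of fuel uptake and oxidation, induced libraries were above both other groups of the line. For these genes the gap to myoblasts also exceeded that of the GFP line, by 2.17 ± 0.26, 2.46 ± 0.30 and 1.26 ± 0.18 in that order. The list as a whole did not: 9 of 26 had a higher and 5 a lower value in the msx2 line, and 12 did not pass (median -0.13). Of all genes 9.94% had a higher and 13% a lower value. Ldha, a glycolytic enzyme, was the member that fell (-0.96 ± 0.08).

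Fusion and adhesion genes divided, with 10 of 23 tested higher and 11 lower (median -0.24). Tmem8c, the fusion protein myomaker, had 721, 640.2 and 782 CPM in induced msx2 myotubes, 728, 733 and 676 CPM in uninduced msx2 myotubes and 51 and 49.3 CPM in msx2 myoblasts (log2 over myoblasts 3.83 ± 0.10). Dysf, dysferlin of membrane repair, was higher by 1.98 ± 0.08. Nphs1, nephrin, had 237, 311 and 266 CPM in induced msx2 myotubes, 317, 405 and 342 CPM in uninduced msx2 myotubes and 1221 and 1181 CPM in msx2 myoblasts (log2 over myoblasts -2.15 ± 0.11). The small GTPase Rac1 was lower (-1.11 ± 0.05).

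Progenitor and myoblast factors were mostly low, with 22 of 38 tested lower and 12 higher (median -0.64, against -1.07 in uninduced msx2 myotubes). Pax7, the satellite cell factor, had 10.6, 9.69 and 7.47 CPM in induced msx2 myotubes, 3.69, 3.73 and 2.49 CPM in uninduced msx2 myotubes and 84.4 and 78.6 CPM in msx2 myoblasts (log2 over myoblasts -3.14 ± 0.18). Induced libraries were above uninduced ones and far below myoblasts. Id3, an inhibitor of myogenic factors, had 66.1, 64.3 and 67.8 CPM in induced msx2 myotubes, 64.9, 66.3 and 67 CPM in uninduced msx2 myotubes and 358 and 350.4 CPM in msx2 myoblasts (log2 over myoblasts -2.42 ± 0.09). Heyl, a Notch target of satellite cells, had 50.5, 50.8 and 49.6 CPM in induced msx2 myotubes, 5.34, 5.87 and 6.01 CPM in uninduced msx2 myotubes and 35.1 and 31.9 CPM in msx2 myoblasts (log2 over myoblasts 0.58 ± 0.08). For Heyl the induced libraries were above both other groups, while induced GFP myotubes had 6.71, 7.15 and 7.2 CPM and GFP myoblasts 6.95 and 6.7 CPM. Sox8 had 4.39, 5.2 and 5.94 CPM in induced msx2 myotubes, 0.549, 1.35 and 0.903 CPM in uninduced msx2 myotubes and 6.68 and 5.3 CPM in msx2 myoblasts, and did not differ from myoblasts past the threshold (adjusted p = 0.42). Nes, nestin, an intermediate filament of young muscle, was higher (1.93 ± 0.09).

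The GFP line gave an outside set of genes that differ between induced myotubes and myoblasts, in libraries that this comparison does not use. Differentiation, mesh isolation, AraC, doxycycline and GFP cannot be told apart there either. Of 4037 genes (24.9%) at least 2-fold higher in induced GFP myotubes than in GFP myoblasts, 3771 (93.4%) were higher in induced msx2 myotubes than in msx2 myoblasts, 14 lower and 252 did not pass. Of 2593 genes (16%) at least 2-fold lower in the GFP line, 2448 (94.4%) were lower in the msx2 line, 20 higher and 125 did not pass. Over all 16245 genes tested, of which the sets made up 24.9% and 16%, 42.4% passed higher and 38.4% lower in the msx2 line. The median changes were 1.90 in the msx2 line and 1.92 in the GFP line for the first set, and -1.59 and -1.52 for the second. Over 13789 genes with a group mean of at least 2 CPM, Pearson's r between the changes of the lines was 0.901, a description across genes, which are not independent. Of 11184 genes past the threshold in each line, 10911 moved in the same direction and 273 in opposite directions.

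**Figure D3:**
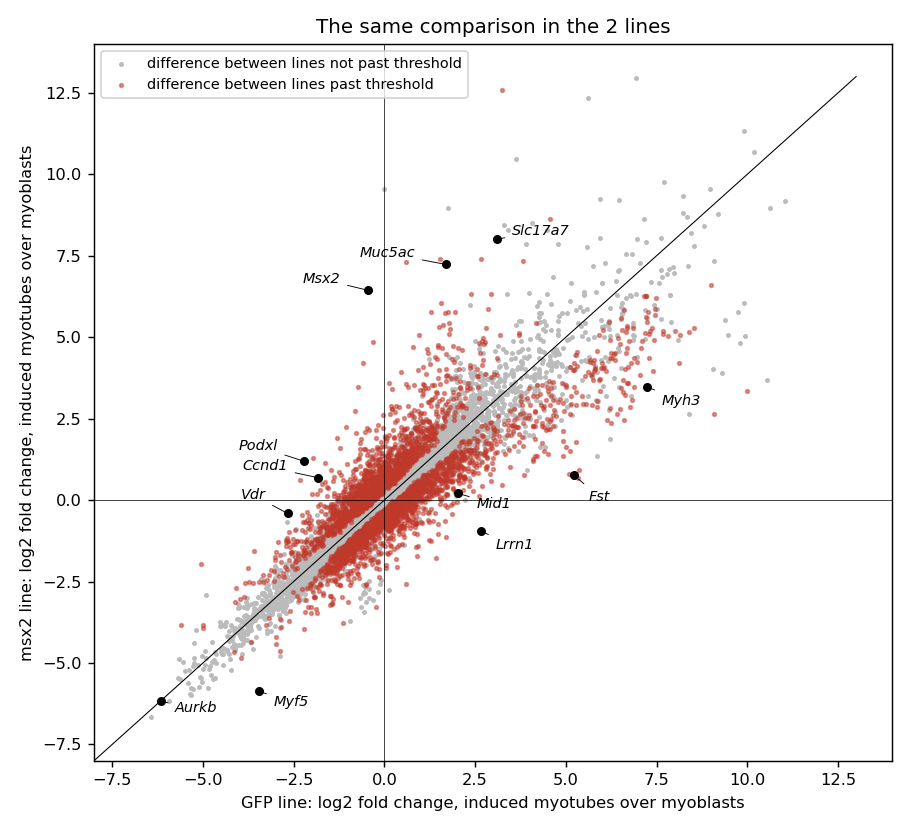
Log2 fold change of induced myotubes over myoblasts in the msx2 line (y axis) against the same in the GFP line (x axis), for 13789 genes with a group mean of at least 2 CPM; red points are genes whose difference between lines passed the threshold, the diagonal marks equal change, and 12 named genes are in black. Most genes lie along the diagonal, while genes high on the GFP axis, such as Myh3 and Fst, lie below it and Msx2 and Muc5ac above it.

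Some genes that changed in the GFP line stood at or near the myoblast level in induced msx2 myotubes. They were taken as the 8 with the lowest msx2 comparison among genes at least 4-fold higher in the GFP line, and as the 8 with the highest among genes at least 4-fold lower there, so their values are a description without a test. Lrrn1, a leucine-rich repeat membrane protein, had 82.2, 95.3 and 193 CPM in induced msx2 myotubes, 883, 761 and 951 CPM in uninduced msx2 myotubes and 245 and 235 CPM in msx2 myoblasts. Olfm1 had 89.2, 93.7 and 122 CPM in induced msx2 myotubes, 263, 234 and 281 CPM in uninduced msx2 myotubes and 112 and 99.6 CPM in msx2 myoblasts. Mid1, a microtubule-binding ubiquitin ligase, had 60.3, 64 and 87.4 CPM in induced msx2 myotubes, 199.7, 179 and 191 CPM in uninduced msx2 myotubes and 63.2 and 59.2 CPM in msx2 myoblasts. All 3 were high in uninduced myotubes, with the induced libraries below the myoblasts for Lrrn1 and overlapping them for Olfm1 and Mid1. Ctsc, Cnr1, Nars2 and Klf5 had log2 changes over msx2 myoblasts of 0.12, 0.29, 0.32 and 0.43. Fam163b, the last of them, had 4.35, 3.47 and 4.7 CPM in induced msx2 myotubes and 3.94, 2.92 and 4.11 CPM in uninduced ones, and its place rested on 1 library, since msx2 myoblasts had 7.71 and 0.699 CPM.

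In the other direction, Vdr, the vitamin D receptor, had 22.4, 19.3 and 17.9 CPM in induced msx2 myotubes, 2.79, 3.84 and 3.46 CPM in uninduced msx2 myotubes and 26.5 and 26.3 CPM in msx2 myoblasts. Mgat3, a glycosyltransferase, had 45.6, 54.7 and 53.8 CPM in induced msx2 myotubes, 8.14, 16.1 and 10.1 CPM in uninduced msx2 myotubes and 47.1 and 43.7 CPM in msx2 myoblasts. Podxl, podocalyxin, had 35.2, 20.2 and 43.7 CPM in induced msx2 myotubes, 3.89, 3.98 and 4.39 CPM in uninduced msx2 myotubes and 14.8 and 14.1 CPM in msx2 myoblasts. Phf19, a Polycomb-associated protein, had 9.21, 6.26 and 8.75 CPM in induced msx2 myotubes, 1.6, 1.14 and 1.09 CPM in uninduced msx2 myotubes and 5.35 and 5.18 CPM in msx2 myoblasts. These genes were low in uninduced myotubes, and the induced libraries were close to myoblasts for Vdr and Mgat3 and above them for Podxl and Phf19. Pgf (-0.37), Plekhg4 (-0.47), Fblim1 (-0.50) and Anp32a (-0.60) were the others, all slightly below msx2 myoblasts on the log2 scale. In induced GFP myotubes Podxl had 3.12, 3.78 and 3.4 CPM and Vdr 3.07, 2.9 and 2.97 CPM, as low as in uninduced msx2 myotubes.

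Among genes that averaged 2 CPM or more in some group and whose difference between the lines passed, some of the 6 most negative differences are given, again without a test. Fst, follistatin, the antagonist of activins and myostatin, had 15.7, 21.9 and 32.2 CPM in induced msx2 myotubes, 250.4, 167 and 226 CPM in uninduced msx2 myotubes and 13.7 and 13.9 CPM in msx2 myoblasts, whereas induced GFP myotubes had 351, 264 and 279 CPM and GFP myoblasts 8.21 and 7.71 CPM. Slc2a6, a sugar transporter, had 2.66, 2.6 and 3.2 CPM in induced msx2 myotubes, 21.7, 27.9 and 21.7 CPM in uninduced msx2 myotubes and 1.43 and 1.81 CPM in msx2 myoblasts. In both genes the induced msx2 libraries were far below the uninduced ones and above both msx2 myoblast libraries. B3galt5, Ripply1 and Slc6a19 were also among them, with log2 changes over msx2 myoblasts of 0.68, 0.94 and 3.36.

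**Figure D4:**
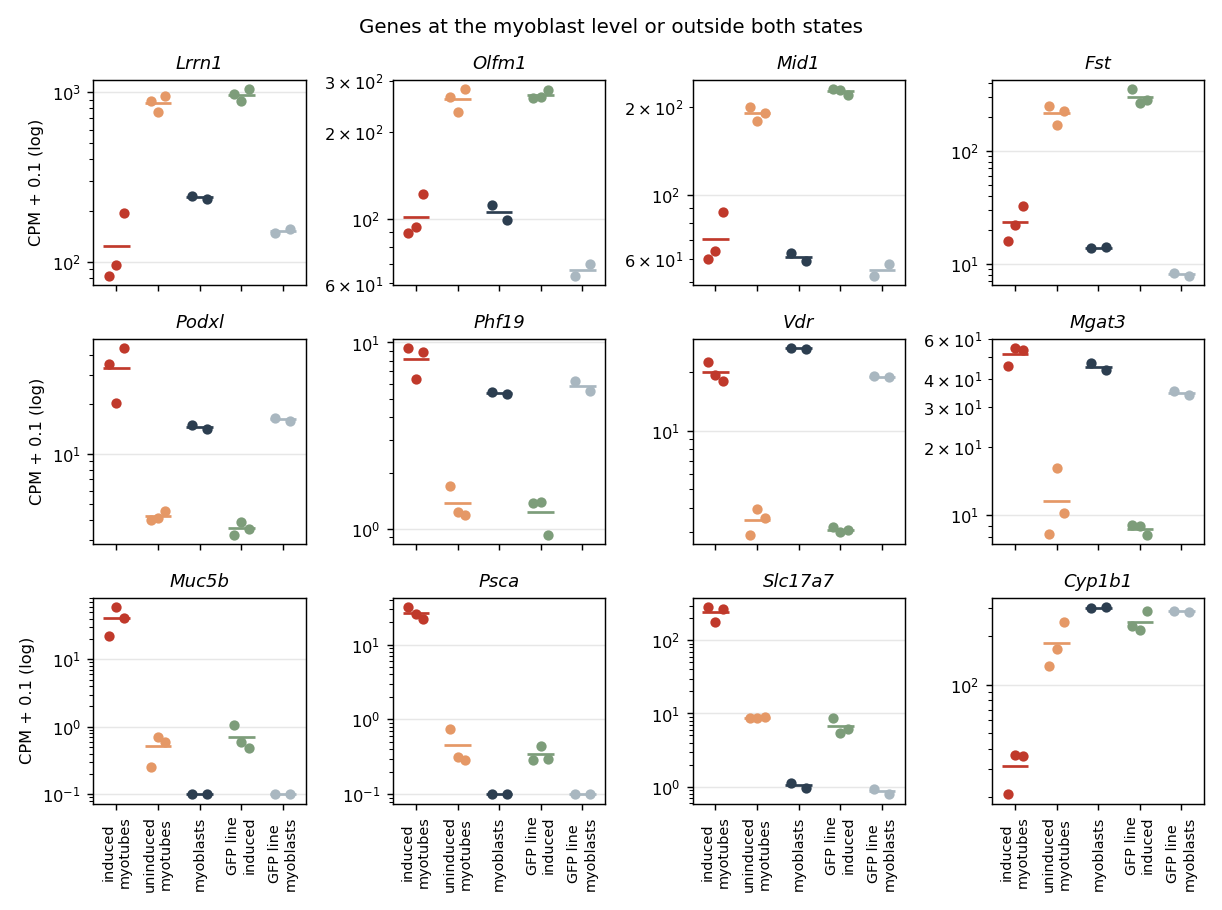
CPM plus 0.1 on a log axis (y) of 12 genes in each library of 5 groups (x): induced and uninduced msx2 myotubes, msx2 myoblasts, induced GFP myotubes and GFP myoblasts; points are libraries and bars group means. In the first row induced msx2 myotubes lie near myoblasts and far below the other myotubes, in the second near or above myoblasts and far above the other myotubes, and in the third outside both.

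Other genes left both states. At least 2-fold above msx2 myoblasts and above uninduced msx2 myotubes were 554 genes (3.41%), and 111 (0.683%) were at least 2-fold below both. Of the 554, 371 were also higher in induced GFP myotubes than in GFP myoblasts, 17 were lower there and 166 did not pass. Over all genes, 39.7% were higher and 37.8% lower there. The largest were again chosen by their size, among genes whose induced libraries overlapped neither other group. Muc5b, a gel-forming mucin of airway epithelium, had 21.8, 58.6 and 40.1 CPM in induced msx2 myotubes, 0.15, 0.604 and 0.498 CPM in uninduced msx2 myotubes and no read in msx2 myoblasts, at least 632-fold higher than in msx2 myoblasts. Psca, a GPI-anchored epithelial antigen, had 31.4, 25.6 and 21.6 CPM in induced msx2 myotubes, 0.649, 0.213 and 0.187 CPM in uninduced msx2 myotubes and no read in msx2 myoblasts, at least 404-fold higher. Muc5ac, another gel-forming mucin, had 21.6, 28.5 and 29.4 CPM in induced msx2 myotubes, 0.799, 0.995 and 0.623 CPM in uninduced msx2 myotubes and 0.178 and 0.164 CPM in msx2 myoblasts. Of the mucin and mucosal list, 8 of 16 genes were tested and 7 were higher, Muc5b, Muc5ac and Psca among them. Their summed level was 91.3 to 128 CPM in induced msx2 myotubes, 8.63 to 9.96 CPM in uninduced msx2 myotubes and 4.63 to 6.54 CPM in msx2 myoblasts.

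Further genes above both were of other kinds. Thrsp, a regulator of lipid synthesis, had 9.25, 6.58 and 7.08 CPM in induced msx2 myotubes, 0.299, 0.284 and 0.343 CPM in uninduced msx2 myotubes and 0 and 0.0822 CPM in msx2 myoblasts, and Kctd14 had 9.68, 7.17 and 7.61 CPM in induced msx2 myotubes, 0.998, 0.818 and 0.685 CPM in uninduced msx2 myotubes and 0.0891 and 0 CPM in msx2 myoblasts. With so few myoblast reads, their ratios to msx2 myoblasts were 177.3 (95% counting interval 48.85 to 1467) and 189.4 (52.21 to 1567), which cover counting error alone. Tuba8, an alpha-tubulin, had 12.4, 8.54 and 10.7 CPM in induced msx2 myotubes, 0.549, 0.889 and 0.592 CPM in uninduced msx2 myotubes and 0.0891 and 0.617 CPM in msx2 myoblasts. Slc17a7, the vesicular glutamate transporter of neurons, had 283, 179 and 271 CPM in induced msx2 myotubes, 8.48, 8.67 and 8.87 CPM in uninduced msx2 myotubes and 1.02 and 0.863 CPM in msx2 myoblasts (log2 over myoblasts 8.01 ± 0.32). Acox2, a peroxisomal oxidase, had 107, 97.6 and 107 CPM in induced msx2 myotubes, 35.1, 24.2 and 29.7 CPM in uninduced msx2 myotubes and 0.178 and 0.164 CPM in msx2 myoblasts (log2 over myoblasts 9.20 ± 0.45). Hrh3, a histamine receptor, had 11.2, 12.9 and 15.1 CPM in induced msx2 myotubes, 2.75, 3.59 and 3.02 CPM in uninduced msx2 myotubes and no read in msx2 myoblasts, at least 205-fold higher. Of these genes all but Tuba8 were also past the threshold, and higher, in uninduced msx2 myotubes over msx2 myoblasts, and the induced libraries were higher still. Prom2 and Pth2, also without a read in msx2 myoblasts, were at least 112-fold and 59.8-fold higher. Ptgds, a prostaglandin synthase, was at least 131-fold higher than in msx2 myoblasts with 7.99, 10.0 and 7.22 CPM in induced msx2 myotubes, but uninduced msx2 myotubes overlapped it with 5.99, 7.79 and 5.26 CPM. The same held for Cd300c and Ces2e, at least 68.1-fold and 59.4-fold higher than in msx2 myoblasts.

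Among the genes below both, Cyp1b1, a cytochrome P450 enzyme, had 20.7, 36.4 and 36 CPM in induced msx2 myotubes, 129.9, 166 and 246 CPM in uninduced msx2 myotubes and 299 and 303 CPM in msx2 myoblasts (log2 over myoblasts -3.27 ± 0.27). Hlx, a homeodomain factor, had 3.85, 3.66 and 3.34 CPM in induced msx2 myotubes, 11, 11.9 and 9.62 CPM in uninduced msx2 myotubes and 37.1 and 36.8 CPM in msx2 myoblasts (log2 over myoblasts -3.35 ± 0.13). With Myf5 they show genes that fell in uninduced myotubes and stood lower again in induced ones. Rasl11a (-3.96 ± 0.18), Avpr1a, a vasopressin receptor (-4.85 ± 0.20), Igsf10 (-4.62 ± 0.25), Sfrp2, a secreted Wnt modulator (-3.92 ± 0.49), and Pcdh18, a protocadherin (-3.47 ± 0.21), were the others taken.

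Signalling lists moved in mixed directions. In BMP and TGF-beta signalling 15 of 41 tested genes were higher and 17 lower (median 0.08). The extracellular antagonist Chrd, chordin, had 45, 33.9 and 50.3 CPM in induced msx2 myotubes, against 2.14 and 2.51 CPM in msx2 myoblasts (log2 4.21 ± 0.19), and the ligand Tgfb3 was higher by 1.18 ± 0.08. The receptor Acvr1 (-1.84 ± 0.09) and the shared mediator Smad4 (-0.86 ± 0.06) were lower. These genes were named by adjusted p and do not describe the list. With upper-quartile scaling 19 of its 41 genes were higher and 15 lower. In Wnt and Notch signalling 19 of 39 were higher and 17 lower (median 0.25, against -0.50 in uninduced msx2 myotubes). Wnt11 had 84.8, 59.9 and 67.9 CPM in induced msx2 myotubes, 10.9, 9.74 and 10.7 CPM in uninduced msx2 myotubes and 3.03 and 1.85 CPM in msx2 myoblasts (log2 over myoblasts 4.87 ± 0.19). Axin2, a target and inhibitor of Wnt signalling, had 31.2, 26 and 30.4 CPM in induced msx2 myotubes, 17, 14 and 17 CPM in uninduced msx2 myotubes and 0.668 and 0.411 CPM in msx2 myoblasts (log2 over myoblasts 5.76 ± 0.21). The receptor Fzd4 (-3.46 ± 0.15) and the factor Tcf7l2 (-2.00 ± 0.11) were lower. Of 35 immediate early and ERK feedback genes 10 were higher and 19 lower (median -0.52). Nr4a1, an early-response nuclear receptor, had 63.1, 65.1 and 71.9 CPM in induced msx2 myotubes, 13.2, 18.3 and 12.2 CPM in uninduced msx2 myotubes and 15.7 and 14.6 CPM in msx2 myoblasts, above both other groups (log2 over myoblasts 2.14 ± 0.15). The feedback inhibitors Spry1 and Spry2 changed by 2.14 ± 0.15 and -1.86 ± 0.09, in opposite directions.

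Matrix genes were lower in 29 of 44 tested and higher in 7 (median -1.17). Remodelling genes were lower in 12 of 23 and higher in 7 (median -0.60), where 38.4% and 42.4% of all genes were. Col1a2, a chain of type I collagen, had 2.54, 4.69 and 1.71 CPM in induced msx2 myotubes, against 63.8 and 63.2 CPM in msx2 myoblasts (log2 -4.42 ± 0.32). Fmod, fibromodulin, fell by 3.92, and the collagen chaperone gene Serpinh1 by 1.63. Summed matrix levels were 8652 to 14861 CPM in induced msx2 myotubes, 9252 to 14866 CPM in uninduced msx2 myotubes and 24971 to 26014 CPM in msx2 myoblasts, the highest of each myotube group in library 2. Against this fall, Lama5, a laminin chain, had 354, 328 and 355 CPM in induced msx2 myotubes, 117, 140.1 and 129.5 CPM in uninduced msx2 myotubes and 158 and 154 CPM in msx2 myoblasts (log2 over myoblasts 1.15 ± 0.09). Mmp15, a membrane-type metalloproteinase, was higher by 2.97 ± 0.12, and Mmp14, its relative, was lower (-2.21 ± 0.16).

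Most genes of ribosome production and cholesterol synthesis were lower. Of 36 tested genes of ribosome biogenesis and polymerase I, 31 were lower and 2 higher (median -1.32), with Tcof1, treacle of the nucleolus, at -2.32 ± 0.08 and Rrs1 at -2.59 ± 0.10. Of 22 genes of cholesterol synthesis 18 were lower and 1 higher (median -1.30), with the enzymes Cyp51 at -2.00 ± 0.07 and Lss at -2.00 ± 0.10 and, in the other direction, Dhcr7 at 0.53 ± 0.08. Among atrophy and autophagy genes 19 of 25 were higher and 4 lower (median 0.67). Trim63, the muscle ubiquitin ligase MuRF1, had 117, 103 and 118 CPM in induced msx2 myotubes, 59.7, 58 and 59.8 CPM in uninduced msx2 myotubes and 3.52 and 3.21 CPM in msx2 myoblasts (log2 over myoblasts 5.07 ± 0.10). Fbxo32, the ligase atrogin-1, had 103, 86.3 and 93.2 CPM in induced msx2 myotubes, 47.9, 36.2 and 52.1 CPM in uninduced msx2 myotubes and 6.46 and 6.29 CPM in msx2 myoblasts (log2 over myoblasts 3.88 ± 0.15). Both ligases of muscle protein breakdown were highest in the induced libraries. Of p53 targets 15 of 28 were higher and 7 lower (median 0.38), where 42.4% and 38.4% of all genes were. Gadd45a stood at 3.18 ± 0.13, while Trp53 itself fell by 2.12. ATF4 and amino acid genes were higher in 10 of 27 and lower in 13 (median -0.05), and in 12 and 11 with upper-quartile scaling. Trib3 stood at 2.19 ± 0.15 and Slc7a11, the cystine transporter, at -2.10 ± 0.12. Interferon response genes were higher in 13 of 32 and lower in 6, where 42.4% and 38.4% of all genes were. Rsad2 was scarce in every group, with 8.28, 6.34 and 6.01 CPM in induced msx2 myotubes, 1.1, 0.64 and 0.965 CPM in uninduced msx2 myotubes and 0.401 and 0.247 CPM in msx2 myoblasts.

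Markers of other cell types moved in different directions, where 42.4% of all genes passed higher and 38.4% lower. Fibroblast markers were higher in 6 of 13 tested and lower in 5, with a summed level of 368.4 to 479.1 CPM in induced msx2 myotubes, against 1263 to 1265 CPM in msx2 myoblasts, and Pdgfrb, a receptor of platelet-derived growth factor, was among the lower ones (-2.31 ± 0.16). Smooth muscle markers were higher in 3 of 10 and lower in 4, and held 6128 to 6584 CPM in induced msx2 myotubes, against 5904 to 6392 CPM in msx2 myoblasts. That sum mixed Des, desmin, also a skeletal muscle protein (2.59 ± 0.08), with Acta2, smooth muscle alpha-actin, which had 274, 658 and 397 CPM in induced msx2 myotubes, against 4228 and 3921 CPM in msx2 myoblasts (log2 -3.20 ± 0.29). Leukocyte markers held 32.9 to 33.8 CPM in induced msx2 myotubes, against 25.8 to 34.6 CPM in msx2 myoblasts, and 4 of 7 were higher and 2 lower. Endothelial markers held 40.2 to 44.6 CPM in induced msx2 myotubes, against 19.3 to 19.9 CPM in msx2 myoblasts, with 6 of 9 higher and Vwf at 2.47 ± 0.23. Adipocyte markers held 73.4 to 79.9 CPM in induced msx2 myotubes, 14.8 to 19.6 CPM in uninduced msx2 myotubes and 38.0 to 38.7 CPM in msx2 myoblasts, with 4 of 8 higher and 2 lower. Plin4, a lipid droplet protein, had 29.1, 23.6 and 30.3 CPM in induced msx2 myotubes, 2.05, 1.96 and 3.02 CPM in uninduced msx2 myotubes and 0.312 and 0.699 CPM in msx2 myoblasts (log2 over myoblasts 5.74 ± 0.30). Neural markers held 285.4 to 386 CPM in induced msx2 myotubes, mostly Slc17a7, against 343.3 to 352 CPM in msx2 myoblasts, with 5 of 10 higher and 3 lower. Chondrocyte markers were higher in 7 of 9 and lower in 2, pluripotency markers higher in 3 of 6, and bone and Dlx genes higher in 5 of 16 and lower in 6. Among the last, Alpl, alkaline phosphatase, was higher (2.10 ± 0.22), while Dlx2 (-3.50 ± 0.19) and Runx2 (-1.63 ± 0.11), regulators of bone formation, were lower. The part of other cells in these levels was not tested.

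The gap between induced myotubes and myoblasts differed between the lines for 3726 genes (22.9%), 1615 (9.94%) with a higher and 2111 (13%) with a lower value in the msx2 line. That balance turned with upper-quartile scaling (1899 higher and 1684 lower) and with a filter of 5 CPM in 2 libraries (1818 and 1743). The count of 3726 fell when either myoblast library of either line was left out, with 1 library then left in that group. These fits do not single out a library. Of the 58 sarcomere genes 3 had a higher value in the msx2 line and 40 a lower one. The undifferentiated cells of the lines differed too: 40 of the 58 were higher in msx2 than in GFP myoblasts (9.09% of all genes were) and 0 were lower. In induced myotubes 13 of the 58 were higher and 28 lower in the msx2 than in the GFP line, where 17.6% and 17.8% of all genes were. Mylpf, the fast regulatory light chain, had 3559, 3409.9 and 3621 CPM in induced msx2 myotubes, 248 and 231 CPM in msx2 myoblasts, 3964, 3862 and 3764 CPM in induced GFP myotubes and 74 and 71.8 CPM in GFP myoblasts. Its smaller gap in the msx2 line (difference between lines -1.84 ± 0.12) stood beside a higher myoblast level. Myh3 had 10331, 8716 and 8867 CPM in induced GFP myotubes and 58.5 and 64.4 CPM in GFP myoblasts, and its gap was smaller in the msx2 line (difference between lines -3.77 ± 0.18), with induced msx2 myotubes below every induced GFP library. For Tnnc1 the difference was -1.79 ± 0.11. Of the 51 tested genes of the mitosis list 4 had a higher and 3 a lower value in the msx2 line, and of the 51 of the replication list likewise 4 and 3.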

How the data were processed

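The authors deposited a table of read counts per gene, whole numbers that were not normalized, for 16 libraries in 6 groups. Per the submitters' processing notes the tools were TopHat2 2.0.11, SAMtools 0.1.19 and edgeR 3.6.8 on mm9, and the program that counted reads, its annotation and its use of strand are, in the sources used here, not given. The 67 entries without a symbol, 0.0601% to 0.0878% of reads, were left out. edgeR 4.0.16 in R 4.3.3 was run on all 16 libraries with 1 coefficient per group (TMM, filterByExpr with a minimum count of 10, robust quasi-likelihood fit), so that groups of 2 and 3 libraries share 1 estimate of the spread, and p-values were adjusted over 16245 genes. The procedure was run on simulated data with 200 changed genes, which cannot check the scaling where most genes change. Alternatives were upper-quartile and RLE scaling, other filters, DESeq2 1.42.0, a replicate block, fits to the compared groups alone and libraries left out. Those leaving out uninduced or GFP libraries, or genes that differ between myoblast libraries, were chosen after seeing the data. Members and gene lists were chosen with earlier results of these data known. Genes were named by rule, among genes that averaged 2 CPM or more in a group compared and have no clone or predicted-gene symbol: the largest changes, up to 2 risers and 2 fallers of each list by adjusted p, all muscle transcription factors and E2F, Rb, D-cyclin and CDK inhibitor genes (at any level), genes outside both states, genes off the GFP-line change, and the extremes of the difference between lines; a few of them are not reported here. Acta1, Ckm, Mki67, Pax7, Ryr1, Agrn, Cpt1b, Heyl, Musk, Mybpc2, Myh1, Myh3, Myl1, Slc2a4, Sox8, Tnni1, Tpm1 and Tpm3 fall outside it, are marker genes or were chosen after their values were seen. For the largest changes and the genes outside both states, the rule also required no overlap between libraries of the groups compared.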

Additional observations from a re-analysis of the deposited data

Results flagged for a closer look

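The change in induced myotubes over myoblasts of the msx2 line was set against the same change in the GFP line, and results whose difference between the lines passed the adjusted p threshold in edgeR's quasi-likelihood test are given here as values. That held for 3726 of 16245 genes. Among the genes for which the difference is printed above, the msx2 line had the higher value for Ccnd1 (2.51 ± 0.29), E2f1 (1.63 ± 0.22), Slc2a4 (2.17 ± 0.26), Cpt1b (2.46 ± 0.30) and Fabp3 (1.26 ± 0.18), and the lower value for Myf5 (-2.42 ± 0.24), Myog (-2.28 ± 0.12), Myh3 (-3.77 ± 0.18), Mylpf (-1.84 ± 0.12) and Tnnc1 (-1.79 ± 0.11), on the log2 scale with standard errors, over 3 induced and 2 myoblast libraries in each line. The part of the higher muscle gene levels in msx2 myoblasts in these differences was not tested.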

How the results depend on the processing

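The 51 mitosis and the 51 replication genes passed as lower under every other scaling, filter and fit run. All sarcomere genes tested passed as higher where each group kept at least 2 libraries, 55 with the 5 CPM filter and 58 otherwise. With 1 msx2 myoblast library left this did not hold in every fit. A test against a fold of 2 left 50 mitosis, 48 replication and 55 sarcomere genes. It left 5534 of all genes, 3216 higher and 2318 lower, since it asks for more. A filter of 5 CPM in 2 libraries, which tests fewer genes, gave 2820 genes at least 2-fold higher and 2506 of the genes higher in the GFP line passing higher. Defining the GFP-line genes by 4-fold gave 1800 higher and 723 lower, from smaller sets. Leaving out 1 library at a time gave 2288 to 3997 genes for the difference between lines, 997 to 1752 higher and 1272 to 2245 lower, and the cause was not tested. For the other counts of genes past the threshold these fits gave 12007 to 13192 against myoblasts and 4417 to 5227 against uninduced myotubes. With 1 myoblast library left, its spread is taken from the other groups. Sox8, not past the threshold, turned to 0.0246 on the log2 scale with the 5 CPM filter. Over the genes named, 7 lost the threshold against myoblasts under at least 1 alternative (Ccnd1, Fblim1, Klf5, Myf6, Nars2, Pgf and Plekhg4) and Myod1 gained it. Replicate numbers did not pair induced msx2 myotube with msx2 myoblast libraries (r = -0.0138 and -0.0749 between deviations of same-numbered libraries). Pairing of induced with uninduced msx2 myotubes, where library 2 stood apart in both groups, was not tested. The replicate block gave 13347 genes against myoblasts, 4797 for the difference between lines and 6217 against uninduced myotubes. Without it these were 13136, 3726 and 5287. DESeq2 gave 12840, 4084 and 5261.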
